A study of Mus musculus with 12 samples.

Results

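The genes described here are 9 markers and effectors of cell division: Mki67, Top2a, Cdk1, Ccna2, Cenpe, Cenpf, Kif11, Anln and Plk4. They were taken by symbol and were all found in both deposited count tables, which share 21976 genes. The study sequenced RNA of mouse skeletal muscle (strain C57BL/6N) from 4 groups with 3 libraries each, 12 in all. In the Chow group mice ate regular chow, and in the HFD group a high-fat diet, in both cases for 18 weeks from 6 weeks of age, with no injection named. The Vehicle and PCN groups were on the same high-fat diet and were also injected intraperitoneally once a day for 4 days, Vehicle with 30% DMSO in corn oil and PCN with 50 mg/kg of PCN (pregnenolone carbonitrile, a steroid that activates the rodent pregnane X receptor). The sources used here do not name the muscle sampled, and nothing in the labels says that each library came from a separate mouse, so the spread between libraries may be partly technical. The 9 genes were selected on results of these same libraries, with the fold changes of HFD against Chow known. Every value of these genes that involves HFD or Chow libraries is thus a description with no test. For these 9 genes, only PCN against Vehicle was tested.

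Dividing cells switch on a shared set of genes between the start of DNA synthesis and the end of mitosis, and quiescent cells keep most of them off, partly through repressor complexes bound at short promoter elements. Mature muscle fibres have left the cell cycle. In muscle tissue, transcripts of these genes are known from the minority of cells that can divide, such as satellite cells, fibroblasts, endothelial cells and leukocytes. In whole tissue, fewer cells of a type and less RNA per cell cannot be told apart.

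All 9 genes are protein coding, and their spans in the tables equal those of GENCODE vM21 on GRCm38. Their merged exons measure 4.08 kb (Ccna2) to 15.43 kb (Cenpf). Mki67 lies on chromosome 7 (135689784 to 135716361, minus strand), Top2a on chromosome 11 (98992943 to 99024189, minus) and Cdk1 on chromosome 10 (69335146 to 69352938, minus). Ccna2 (36564865 to 36572150, minus), Cenpe (135212537 to 135273611, plus) and Plk4 (40800019 to 40816883, plus) lie on chromosome 3. Cenpf lies on chromosome 1 (189640606 to 189688086, minus), Kif11 on chromosome 19 (37376403 to 37421859, plus) and Anln on chromosome 9 (22332012 to 22389188, minus). Ccna2 shares 510 exonic bases with Exosc9 on the opposite strand, which held 2308 counts over the 12 libraries. The sources used here do not give the strand setting of the counting, so the low counts of Ccna2 are uncertain.

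Promoter sequence, 250 bases before the RefSeq start on GRCm38.p6, was matched for 8 of the 9 genes, not for Ccna2. The windows of Mki67, Top2a and Cdk1 were chosen for display with the levels of these genes known. For Mki67 and Top2a, each HFD library lay above all 9 libraries of the other groups. Cdk1 had 8 counts in HFD and 6 in Chow, too few to tell whether these groups differed. All 3 windows held both kinds of element marked in capitals, as did that of Kif11, with more matches in Top2a. Capitals mark the CCAAT box (CCAAT, or ATTGG on the other strand), which NF-Y binds, and the cell cycle genes homology region or CHR (TTTGAA or TTCGAA, or TTCAAA on the other strand), at which repressor and activator complexes of the cell cycle bind. The Mki67 window is chr7:135716380-135716629, the Top2a window chr11:99024190-99024439 and the Cdk1 window chr10:69352913-69353162, all on the minus strand and written 5′ to 3′.
Mki67: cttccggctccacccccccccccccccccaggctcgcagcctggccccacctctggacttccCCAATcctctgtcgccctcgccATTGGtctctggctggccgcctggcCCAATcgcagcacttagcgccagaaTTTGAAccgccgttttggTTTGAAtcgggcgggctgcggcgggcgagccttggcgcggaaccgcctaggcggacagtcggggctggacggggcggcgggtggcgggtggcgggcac
Top2a: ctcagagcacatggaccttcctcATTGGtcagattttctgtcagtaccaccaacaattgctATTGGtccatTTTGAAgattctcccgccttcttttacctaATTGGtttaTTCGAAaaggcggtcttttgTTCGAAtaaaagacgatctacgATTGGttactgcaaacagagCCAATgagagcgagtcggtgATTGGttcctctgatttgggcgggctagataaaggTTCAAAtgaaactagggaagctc
Cdk1: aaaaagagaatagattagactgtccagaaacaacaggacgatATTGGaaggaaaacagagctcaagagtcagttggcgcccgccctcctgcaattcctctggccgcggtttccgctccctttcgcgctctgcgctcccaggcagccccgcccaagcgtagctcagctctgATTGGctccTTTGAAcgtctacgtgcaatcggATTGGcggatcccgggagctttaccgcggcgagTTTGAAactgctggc

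Top2a held 6 CCAAT boxes and 4 CHR matches in its window, Mki67 held 3 and 2, and Cdk1 also held 3 and 2. A CCAAT box was found in 6 of the 8 windows (Mki67, Top2a, Cdk1, Cenpe, Cenpf and Kif11), against 33.8% of 32851 RefSeq promoters of the same length. A CHR match was found in 4 (Mki67, Top2a, Cdk1 and Kif11), against 17.1%, and the same 4 held both elements, against 6.02%. An E2F site (TTCGCGC or TTGGCGC) was found in 2, Mki67 and Cdk1, against 3.14%, and a GC box (GGGCGG) in 6, against 32.7%. Both strands were searched, and the CHR form TTCGAA reads the same on both and was counted once. Anln held GC boxes alone among these motifs, and the Plk4 window held none of them. These are matches of letters, not measured binding.

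Library totals ran from 12770308 to 19739226 counts, and the 9 genes together took 49 to 301 of them, so counting error was large for most. Levels are CPM, counts scaled to library size after TMM normalisation over the 12 libraries. The labelled tissue was checked with muscle fibre markers, of which 5 of 8 listed were in both tables and summed to 76254 to 140911 CPM. Mitochondrially encoded genes took 10.8% to 20.4% of the counts. The sample titles also carry a running S number, 4, 5 and 6 for the HFD libraries, which the sources used here do not explain. If it marks an order of handling, that order and the uninjected high-fat diet cannot be told apart. HFD 38 stood apart, with the highest level of the 12 libraries for 7 of the 9 genes (8.81% of all genes were highest there), and the results that turned or moved most without it are given with and without it.

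The 9 genes had their highest summed level in the HFD libraries. The sum was 8.37, 11.2 and 16.7 CPM in HFD 4, 30 and 38, 4.13 to 5.21 in Chow, 4.30 to 5.81 in Vehicle and 2.30 to 5.17 in PCN. Mki67 and Top2a made up 39.0% to 47.2% of this sum in HFD and 12.3% to 33.3% elsewhere. Without these 2 genes the sum was 5.10, 5.93 and 9.20 CPM in HFD, and 4.75 in the highest other library. The remaining genes were chosen with the same results known, so nothing is read from this sum. All 9 had a higher mean in HFD than in Chow, and for 5 (Mki67, Top2a, Ccna2, Anln and Plk4) the groups did not overlap. Of all 21976 genes, 4.59% lay above Chow in this way; because the genes were chosen with this comparison known, nothing is read from the difference. The median of the 9 fitted log2 fold changes was 1.05, and 0.59 without HFD 38, beside a median of 0.00 over all 12686 genes tested. The plot of levels by library shows the spread.

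**Figure D1:**
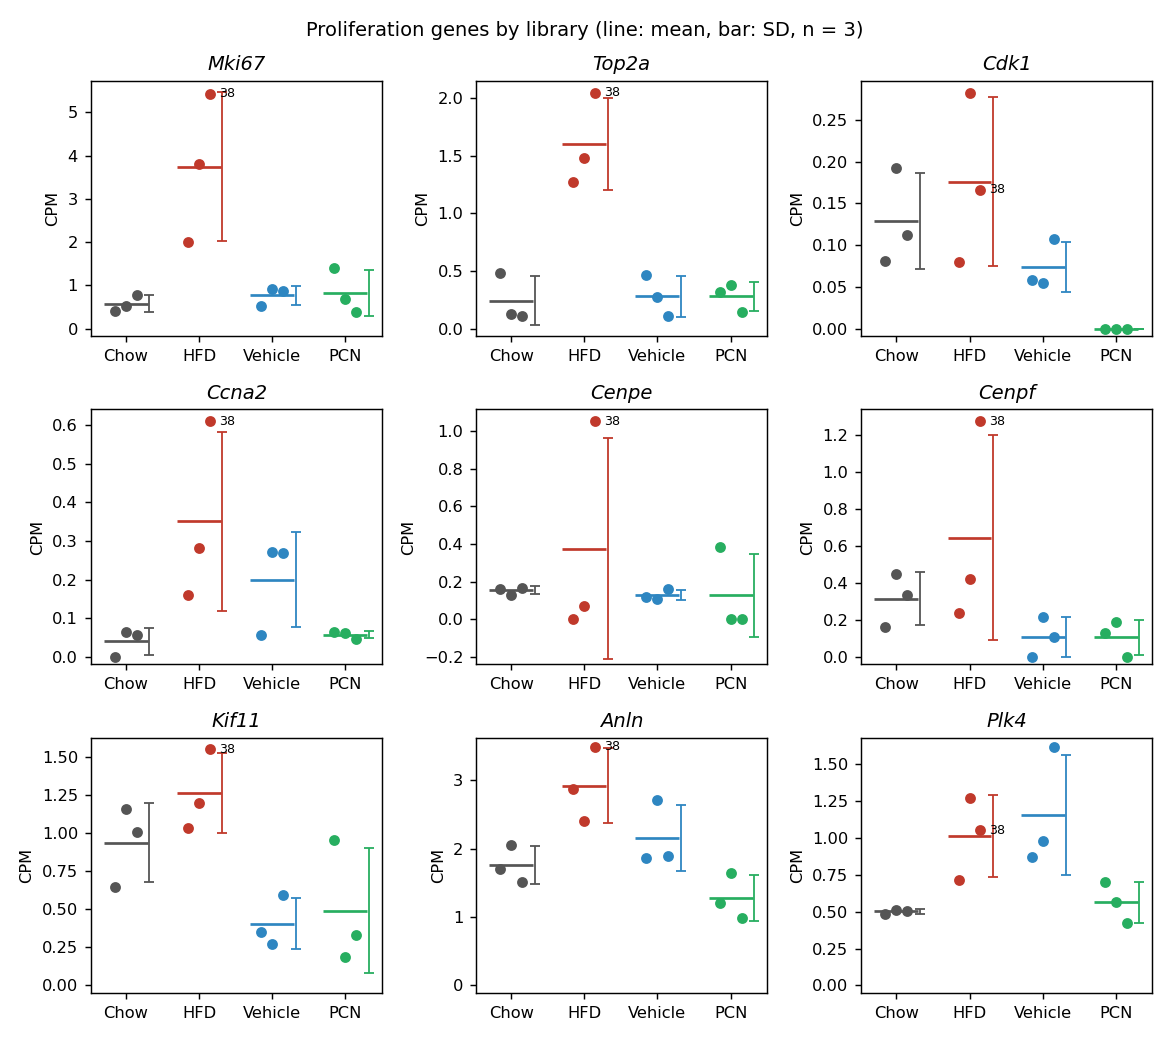
Level of each of the 9 proliferation genes (y axis, CPM after TMM normalisation, a separate linear scale per gene) in the 12 libraries, by group (x axis). Points are libraries, lines are means and bars are SD (n = 3), and 38 marks HFD 38. Mki67 and Top2a are the 2 genes for which all 3 HFD points lie above all 9 others.

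Mki67 encodes Ki-67, a coat protein of mitotic chromosomes and the standard marker of cycling cells. It was at 1.99, 3.81 and 5.43 CPM in HFD 4, 30 and 38 and at 0.405, 0.514 and 0.786 CPM in Chow 8, 17 and 19. In Vehicle 15, 23 and 55 it was at 0.523, 0.924 and 0.863 CPM, and in PCN 5, 11 and 27 at 1.40, 0.693 and 0.375 CPM. Every HFD library was higher than each of the 9 others, while Chow, Vehicle and PCN overlapped. The fitted log2 difference between HFD and Chow was 2.70 ± 0.44 (SE), and 2.31 to 3.02 when each library was left out in turn. It rested on 177 counts in HFD and 27 in Chow, a ratio of normalised counts of 6.70 with an exact 95% interval of 4.45 to 10.4. Such intervals cover counting error alone, and reads without molecular identifiers are not independent molecules.

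Top2a encodes topoisomerase II alpha, which untangles replicated DNA before chromosomes separate. It was at 1.28, 1.48 and 2.05 CPM in HFD 4, 30 and 38 and at 0.486, 0.129 and 0.112 CPM in Chow 8, 17 and 19. In Vehicle 15, 23 and 55 it was at 0.465, 0.272 and 0.108 CPM, and in PCN 5, 11 and 27 at 0.319, 0.378 and 0.141 CPM. Again each HFD library was above all 9 others, and the other 3 groups overlapped. The fitted log2 difference between HFD and Chow was 2.82 ± 0.55 (SE), from 74 counts against 10, and it was 3.68 without Chow 8. All 3 HFD libraries lay above the 9 others for 1.16% of all genes.

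The cyclin-dependent kinase Cdk1 and cyclin A2 (Ccna2), which with Cdk1 and Cdk2 drives S phase and entry into mitosis, were close to the limit of detection. Cdk1 had 1, 4 and 3 counts in HFD 4, 30 and 38, 1, 3 and 2 in Chow 8, 17 and 19, and 1, 1 and 2 in Vehicle 15, 23 and 55. All 3 PCN libraries had 0 counts of Cdk1, which allows up to 0.0567 CPM (3 counts over the group), beside a Vehicle mean of 0.0734 CPM. HFD and Chow overlapped for this kinase. Its ratio of normalised counts between HFD and Chow, 1.36, had an exact 95% interval of 0.414 to 4.76, and its fitted log2 difference of 0.43 ± 1.10 (SE) was -0.015 without HFD 30. The ratio of Mki67, 6.70, lay outside the exact interval of Cdk1, but the interval of Mki67 began at 4.45, and both cover counting error alone. Overlap of these intervals does not test whether the ratios differ, so no conclusion is drawn on Cdk1 against Mki67. The fitted log2 difference of Cdk1 between HFD and Chow had a 95% interval of -1.73 to 2.58. Small differences in Cdk1 were not detectable at this depth. Ccna2 had 2, 4 and 11 counts in HFD 4, 30 and 38 and 0, 1 and 1 in Chow 8, 17 and 19. It had 1, 5 and 5 counts in Vehicle 15, 23 and 55 and 1 in each PCN library. HFD lay above Chow and PCN and overlapped Vehicle. The fitted log2 difference of Ccna2 between HFD and Chow was 2.86 ± 1.11 (SE), and 2.15 without HFD 38.

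The kinetochore motor CENP-E (Cenpe) carries chromosomes to the spindle equator, and CENP-F (Cenpf) is a large kinetochore protein made in G2 and mitosis. Both were highest in HFD 38. Cenpe had 0, 1 and 19 counts in HFD 4, 30 and 38, 2 or 3 in each Chow and Vehicle library, and 6, 0 and 0 in PCN 5, 11 and 27. Cenpf had 3, 6 and 23 counts in HFD 4, 30 and 38, 2, 7 and 6 in Chow 8, 17 and 19, 0, 4 and 2 in Vehicle 15, 23 and 55, and 2, 3 and 0 in PCN 5, 11 and 27. HFD 4 and HFD 30 lay within or below the Chow range for both genes. The fitted log2 difference of Cenpe between HFD and Chow was 1.38 ± 0.84 (SE) with HFD 38 and -1.83 without it. That of Cenpf was 1.05 ± 0.64 (SE) and 0.039 without HFD 38.

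Kif11 encodes Eg5, the kinesin that pushes spindle poles apart. It was at 1.04, 1.20 and 1.55 CPM in HFD 4, 30 and 38 and at 0.648, 1.16 and 1.01 CPM in Chow 8, 17 and 19. It was at 0.349, 0.272 and 0.593 CPM in Vehicle 15, 23 and 55 and at 0.957, 0.189 and 0.328 CPM in PCN 5, 11 and 27. HFD and Chow overlapped (log2 difference 0.44 ± 0.37, SE), and the Vehicle libraries lay below both without overlap. Kif11 thus differed from Mki67 in that Chow was nearer to HFD than to Vehicle.

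Anln encodes anillin, the scaffold of the cytokinetic ring. It was at 2.87, 2.40 and 3.49 CPM in HFD 4, 30 and 38 and at 1.70, 2.06 and 1.52 CPM in Chow 8, 17 and 19. It was at 1.86, 2.72 and 1.89 CPM in Vehicle 15, 23 and 55 and at 1.21, 1.64 and 0.985 CPM in PCN 5, 11 and 27. HFD lay above Chow and PCN, and Vehicle 23 lay within the HFD range. The log2 difference between HFD and Chow was 0.76 ± 0.28 (SE).

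Plk4 encodes the kinase that starts centriole duplication. It was at 0.717, 1.27 and 1.05 CPM in HFD 4, 30 and 38 and at 0.486, 0.514 and 0.505 CPM in Chow 8, 17 and 19. It was at 0.871, 0.978 and 1.62 CPM in Vehicle 15, 23 and 55 and at 0.702, 0.567 and 0.422 CPM in PCN 5, 11 and 27. HFD and Vehicle overlapped, and both lay above Chow and PCN. Plk4 was the 1 gene of the 9 with its highest mean in Vehicle, at 1.16 ± 0.404 CPM against 1.01 ± 0.279 in HFD (SD, n = 3), and its Vehicle mean was 0.925 CPM without Vehicle 55. The log2 difference between HFD and Chow was 1.02 ± 0.41 (SE).

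Per kilobase of exon, which allows genes to be compared, the order of levels differed between groups. In Chow, Anln was highest at 0.194 ± 0.0304 CPM per kb (SD, n = 3), followed by Kif11 at 0.126 ± 0.0351, Plk4 at 0.0732 ± 0.00210 and Mki67 at 0.0565 ± 0.0195. Plk4 and Mki67 differed by less than the SD of Mki67, and the other 5 genes were at 0.00983 to 0.0269 CPM per kb. In HFD, Mki67 came first at 0.372 ± 0.171 CPM per kb and Anln second at 0.322 ± 0.0603, a difference within their spread. Without HFD 38 the order of these 2 turned, with Anln at 0.291 and Mki67 at 0.289 CPM per kb. Top2a (0.178 ± 0.0445), Kif11 (0.169 ± 0.0353) and Plk4 (0.148 ± 0.0407) followed and did not differ beyond their SD in CPM per kb. Ccna2, Cenpe, Cenpf and Cdk1 were at 0.0357 to 0.0858 CPM per kb in HFD. Anln was also highest in Vehicle (0.238 ± 0.0537 CPM per kb) and in PCN (0.141 ± 0.0366), where Mki67 was at 0.0765 ± 0.0215 and 0.0819 ± 0.0524.

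PCN against Vehicle asked whether 4 days of PCN altered these genes in muscle of mice on the high-fat diet. None of the 3 genes with enough counts passed the test, 0 of the 9 passed when the expression filter was dropped, and the low counts leave wide intervals. These 3, Mki67, Anln and Plk4, were tested with edgeR's quasi-likelihood test, adjusted over 12833 genes, of which 0% were called (0 genes; 362, or 2.82%, had an unadjusted p under 0.05, and DESeq2 called 0). Mki67 had a log2 difference of 0.06 ± 0.53 (SE) with a 95% interval of -1.13 to 1.26 (edgeR adjusted p = 0.998), and it was -0.56 without PCN 5 and -0.15 without Vehicle 15. Anln went from 2.15 ± 0.487 CPM in Vehicle to 1.28 ± 0.332 in PCN (SD, n = 3), a log2 difference of -0.76 ± 0.34 (SE; edgeR unadjusted p = 0.0501, adjusted p = 0.998). Plk4 went from 1.16 ± 0.404 to 0.564 ± 0.140 CPM, a log2 difference of -1.05 ± 0.43 (SE; edgeR unadjusted p = 0.0361, adjusted p = 0.998). For both genes each PCN library was below each Vehicle library.

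Groups also did not overlap for Cdk1, with 4 counts in Vehicle and 0 in PCN, where the exact 95% interval of the ratio reached up to 1.55. In all, 3 of the 9 lay lower in PCN in this way, beside 3.65% of all genes. The other 6 genes overlapped, with log2 differences between -1.71 ± 1.26 (Ccna2) and 0.24 ± 0.67 (Kif11). The median was -0.14, beside 0.01 over all genes tested, and it ran from -0.88 to 0.31 when single libraries were left out. The sign of the median turned without PCN 27.

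Vehicle and HFD shared the diet and differed in the injections. The injected and the uninjected groups were also deposited in separate tables, so injection and table cannot be told apart. The title of Vehicle 23 does not name the high-fat diet, unlike the other Vehicle titles. Most of the 9 genes had lower levels in Vehicle, with a mean below HFD for 8 and a median log2 difference of -1.59 (-1.80 to -1.24 with single libraries left out). For 4 genes the groups did not overlap, beside 8.38% of all genes, and nothing is read from this because the HFD libraries were used in choosing the genes. These were Mki67 (log2 difference -2.29 ± 0.41, SE), Top2a (-2.51 ± 0.50), Cenpf (-2.52 ± 0.81) and Kif11 (-1.64 ± 0.44). The value of Cenpf was -1.54 without HFD 38, which held 23 of its 32 HFD counts, and -3.42 without Vehicle 23. Plk4 was the exception, at 0.18 ± 0.40, but its sign turned without Vehicle 55 (-0.15). Ccna2 was at -0.83 ± 0.81, and at -0.14 without HFD 38. Cenpe was at -1.59 ± 0.98, and at 1.61 without HFD 38. PCN lay below HFD without overlap for 8 of the 9, all but Cenpe, beside 9.29% of all genes. Nothing is read from this count either, for the same reason. Some of these gaps were narrow. Cdk1 had 1 count in HFD 4 and 0 in each PCN library, and Ccna2 had 2 in HFD 4 and 1 in each PCN library. Plk4 was at 0.717 CPM in HFD 4 and 0.702 CPM in PCN 5. Both comparisons share the HFD libraries with each other and with the comparison to Chow.

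Against Chow, the injected groups lay on both sides. Plk4 was higher in Vehicle than in Chow without overlap (1.19 ± 0.42, SE; 4.72% of genes lay higher in this way), and Kif11 was lower (-1.22 ± 0.46; 5.84% of genes). The other 7 overlapped, and the median log2 difference between Vehicle and Chow was 0.28, with a sign that turned when Chow 17, Chow 19 or Vehicle 15 was left out. In PCN, Cdk1 alone lay below Chow without overlap, from 6 counts in Chow, beside 6.35% of genes. Mki67 differed from Chow by 0.40 ± 0.45 in Vehicle and 0.47 ± 0.56 in PCN on the log2 scale, the latter turning to -0.15 without PCN 5.

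**Figure D2:**
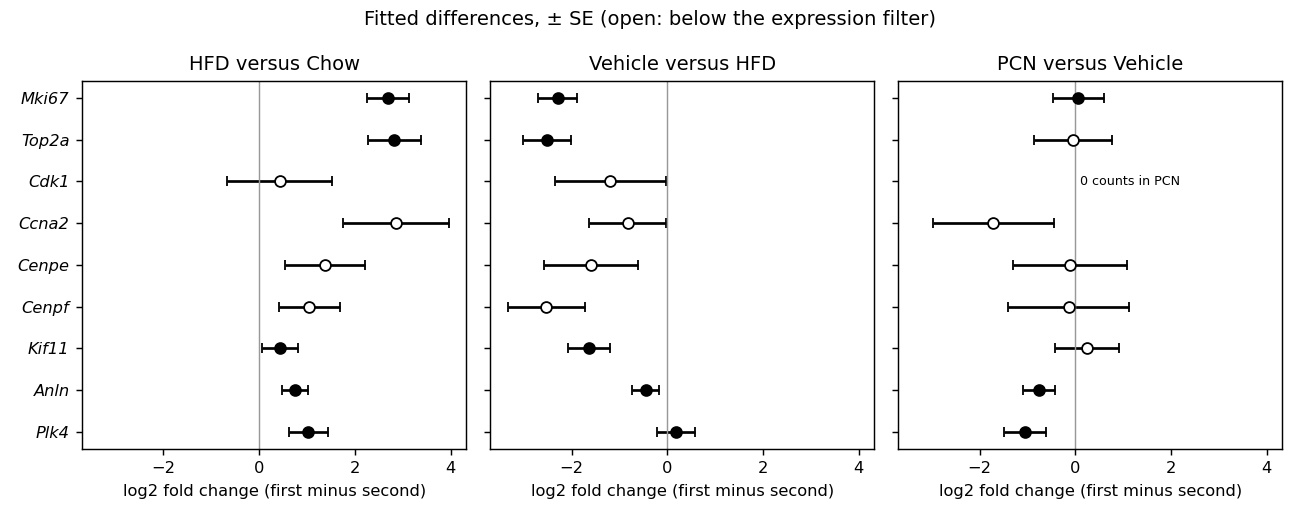
Fitted log2 fold change (x axis, first group minus second) of each proliferation gene in 3 comparisons, with SE bars, 3 libraries per group. Filled points passed the expression filter and open points did not. Mki67 and Top2a lie above 2 for HFD versus Chow, below -2 for Vehicle versus HFD and near 0 for PCN versus Vehicle.

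A list of 128 other cell cycle genes was used to see how far the same pattern extended. The list was chosen with earlier results of these data known, so its counts and calls are given as a description. Of these, 127 were in the HFD and Chow table, and 66 passed the expression filter. None passed the edgeR threshold in HFD against Chow, where 0% of 12686 genes were called, and DESeq2, which called 0.339% of all genes, called 0 of them. There were 38 fitted higher and 28 lower, with a median log2 fold change of 0.07, beside 0.00 for all genes. At an unadjusted p under 0.05 stood 4 of the 66, against 7.70% of all genes. Among them, Ccnd2, a D cyclin of early G1 (0.59 ± 0.22, SE), and the spindle assembly factor Tpx2 (0.50 ± 0.20) were fitted higher, and the kinesin Kif18a was fitted lower (-0.95 ± 0.32).

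By role, the replication licensing and fork genes lay mostly on the lower side in HFD, with 11 of 14 fitted lower and a median of -0.19; Mcm4, a subunit of the replicative helicase, was at -0.42 ± 0.25 (SE). The cell cycle transcription factors and regulators were fitted higher in 8 of 8 cases (median 0.20), among them Rb1 (0.23 ± 0.12) and its relative Rbl1 (0.46 ± 0.32). The 4 tested genes of centriole duplication, the step that Plk4 starts, were fitted higher (median 0.34), with Cenpj at 0.41 ± 0.26 and Sass6 at 0.43 ± 0.33. Kinesins and spindle genes were split, 2 higher and 2 lower. Inhibitors were fitted lower in 6 of 8 cases, with Cdkn2c at -0.46 ± 0.23. None of these was past the threshold.

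**Figure D3:**
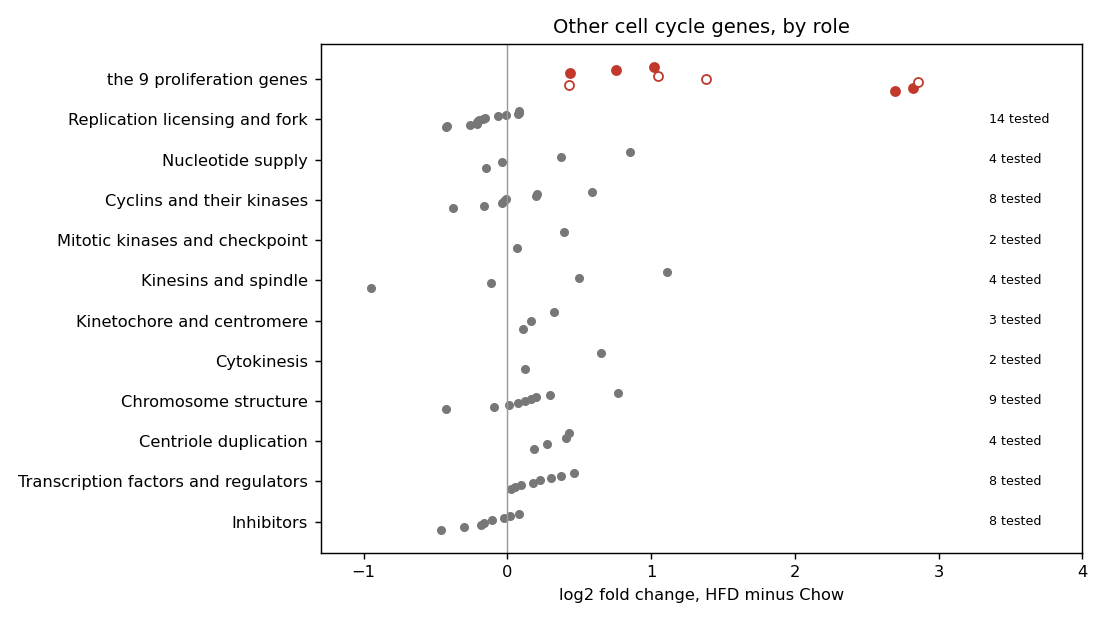
Fitted log2 fold change (x axis, HFD minus Chow) of the 66 tested other cell cycle genes by role (grey points, 1 per gene) and of the 9 proliferation genes (red, open where below the expression filter). The grey points run from -0.95 (Kif18a) to 1.11 (Kif20b), below Mki67, Top2a and Ccna2.

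In PCN against Vehicle, 66 of the 128 were tested and 0 passed the edgeR threshold, as for all genes, with DESeq2 also at 0. There were 20 fitted higher and 46 lower (median -0.17, beside 0.01 for all genes), and Tk1 (0.98 ± 0.38, SE) and Lin9 (-0.60 ± 0.24) had an unadjusted p under 0.05. In Vehicle against HFD, 67 were tested and 1 passed, beside 1.51% of all 12746 genes. That is close to the share over all genes, and the list was chosen with earlier results known. Nothing about the list is therefore read from this call. The gene called was Cdkn1a, which encodes the kinase inhibitor p21. Cdkn1a was at 17.4, 12.6 and 13.5 CPM in HFD 4, 30 and 38 and at 7.61, 7.77 and 5.40 CPM in Vehicle 15, 23 and 55. The groups did not overlap, with a log2 difference of -1.07 ± 0.19 (SE; edgeR adjusted p = 0.0356, lower in 3 of 3 Vehicle libraries, adjusted p from 0.000143 to 0.231 over the alternatives). When single libraries were left out, the call of Cdkn1a held without Vehicle 55 and was lost without each of the other 5 (HFD 4, HFD 30, HFD 38, Vehicle 15 and Vehicle 23), and it was also lost with all 12 libraries in 1 fit. Without HFD 38 the 1 gene called was Btg2, not Cdkn1a. DESeq2, which called 4.82% of all genes here, called Cdkn1a and a second inhibitor of the list, Btg2. In Chow, Cdkn1a spanned 8.87 to 22.7 CPM, which takes in the whole HFD range.

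The other 59 listed cell cycle genes in both tables that were below the filter in HFD and Chow, where Cdk1, Ccna2, Cenpe and Cenpf also lay, had low counts and were summed instead. Their sum was 13.5, 14.5 and 22.9 CPM in HFD 4, 30 and 38, 10.02 ± 0.713 in Chow, 10.02 ± 1.60 in Vehicle and 10.1 ± 1.90 in PCN (SD, n = 3). All 3 HFD libraries were above the highest other library, at 12.1 CPM. Of the 59, 47 (79.7%) had a higher mean in HFD than in Chow, beside 48.3% of all 9351 genes below the filter. HFD 38 held 414 of the 789 HFD counts. It was the highest library for 20 of the 59 (33.9%), beside 9.33% of all genes below the filter. The sum in HFD was 1.69 times that in Chow, and 1.40 times without HFD 38, beside 1.003 and 0.963 for all genes below the filter. Bub1b, a spindle checkpoint kinase, had 39 counts in HFD and 14 in Chow, and Prc1, a bundler of the spindle midzone, had 34 and 8; these 2 were chosen for display after their counts were seen. This is a description of the summed counts, with no test. Nothing is read from these differences, because the list was chosen with earlier results of these data known.

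The genes whose log2 levels over the 12 libraries were most like the mean of the 9 were sought among 13022 genes with at least 0.5 CPM. Csf2rb, a cytokine receptor chain, came first (Pearson r 0.944, Spearman rho 0.902), at 3.22 ± 0.478 CPM in HFD and 2.09 ± 0.401 to 2.42 ± 0.226 in the other groups (SD, n = 3). It was followed by Arsb (r 0.896), Postn (0.886), Cnnm2 (0.883), Tmc7 (0.879), Rrbp1 (0.877), Adam12 (0.873), Plcl1 (0.871), Fat3 (0.866) and Ptprs (0.866). Only Csf2rb was also among the 10 highest by Spearman rho. Of the 68 other cell cycle genes compared, 45 had r above 0, with a median of 0.19 beside 0.01 for all genes, from Ccnd2 at 0.85 to Cdk4 at -0.80. The replication genes Mcm4 (-0.72) and Pcna (-0.61) were also among those with r below 0. All these values share the same 12 libraries and HFD 38 as an extreme point, and are given as a description.

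Markers of some other cell types moved with some of these values, and those of others did not. The 16 macrophage markers summed to 169 CPM in HFD 38, above the 61.3 to 121 CPM of the 11 other libraries. Of them 13 had a higher mean in HFD than in Chow and 12 were highest in HFD 38. Itgad had 0 counts in Chow, while Cd163, Cd14 and Fcgr1 had a lower mean in HFD than in Chow. HFD 38 also had the highest sums of fibroblast and matrix markers (983 CPM, beside 302 to 785) and of adipocyte markers (500.0 CPM, beside 65.6 to 331). The other HFD libraries did not share this: HFD 30, second for Mki67 at 3.81 CPM, had macrophage, matrix and adipocyte sums of 68.4, 535 and 175 CPM, inside the Chow ranges of 61.3 to 108, 489 to 785 and 65.6 to 292. HFD 4, at 1.99 CPM of Mki67, had sums of 92.6, 573 and 105 CPM, also inside those ranges. By mean, 5 of the 7 fibroblast and matrix markers were higher in HFD than in Chow. Dcn (196 ± 50.2 in HFD and 284 ± 88.8 CPM in Chow, SD) and Pdgfra (33.9 ± 8.95 and 39.5 ± 9.20) were lower. Of the 6 adipocyte markers 5 were higher, and Cfd was lower (18.4 ± 19.9 and 38.7 ± 31.3 CPM). Satellite cell and myoblast markers summed to 76.4 to 93.7 CPM in HFD and 95.1 to 120 CPM in Chow, but most of the sum was Myf6 (51.6 ± 8.85 and 68.8 ± 10.6 CPM, SD, n = 3), which mature fibres also express. Without Myf6 the other 7 markers summed to 33.2 to 36.2 CPM in HFD, inside the 32.7 to 40.2 CPM in Chow. Pax7, the defining marker of satellite cells, was at 1.34 ± 0.474 and 1.32 ± 0.663 CPM. By mean, 3 of the 8 (Pax7, Vcam1 and Chodl) were higher in HFD than in Chow. The others were lower, among them Myog (2.65 ± 0.723 and 4.27 ± 0.879 CPM) and Myod1 (6.35 ± 0.415 and 7.39 ± 1.41 CPM). The list of 9 markers of T, B and NK cells was mostly Ptprc, which all leukocytes express (6.49 ± 2.58 CPM in HFD and 3.83 ± 0.758 in Chow, SD, n = 3). The other 8 summed to 0.141 to 1.04 CPM in HFD and 0.0561 to 0.322 in Chow, and Cd3e, Cd3g and Nkg7 had 0 counts in HFD. Endothelial markers summed to 98.3 to 142 CPM in HFD and 130 to 159 CPM in Chow, with 1 of 7 higher by mean in HFD. Erythroid markers summed to 48.5 to 60.1 CPM in HFD and 69.8 to 136 CPM in Chow, with 0 of 7 higher. The 3 granulocyte markers available summed to 0.717 to 2.16 CPM in HFD and 0.505 to 0.972 CPM in Chow, with 3 of 3 higher. In each of the endothelial, erythroid and granulocyte lists 0 markers were highest in HFD 38. The satellite cell and myoblast list had 1 such marker, and so did the T, B and NK cell list. The part of these cell types in the levels of the 9 genes was not tested.

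**Figure D4:**
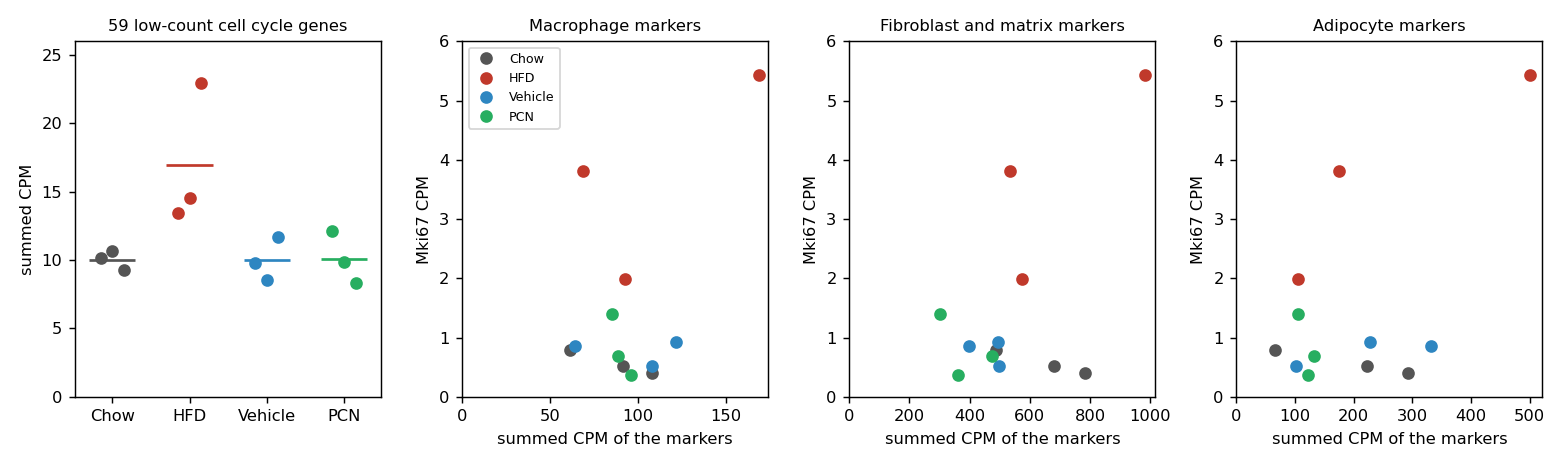
Left, summed CPM of the 59 other cell cycle genes below the expression filter by group (points are libraries, lines are means of 3). The other 3 panels plot Mki67 CPM (y axis) against the summed CPM of macrophage, fibroblast and matrix, and adipocyte markers (x axis) in the 12 libraries; HFD 38 is at the upper right in each, and the other 2 HFD libraries lie among the rest on the x axis.

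Exon length also went with the fold changes between HFD and Chow, with a Spearman rho of 0.257 over 12683 genes, which are not independent replicates. The 6772 tested genes of the same length range as the 9 had a median log2 fold change of 0.05, beside 1.05 for the 9. In Vehicle against HFD the rho was -0.31 over 12743 genes, and 6776 genes of that length range had a median of -0.07, beside -1.59 for the 9. Nothing is read from these differences, because the 9 genes were chosen with results of the HFD libraries known. The genes of that length range had passed the expression filter, which 4 of the 9 had not in either comparison. The part of exon length was not tested.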

How the data were processed

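The authors deposited raw, unnormalised counts by Ensembl gene in 2 tables, 1 for HFD and Chow (24093 genes) and 1 for PCN and Vehicle (24453). Per the submitters' processing notes, HISAT2, HTSeq and DESeq2 were used with GRCm38 and mm10. The sources used here give no tool versions, annotation or strand setting. The tables' own fold changes and p-values were not used.

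edgeR 4.0.16 (R 4.3.3) was run separately on the 6 libraries of each comparison (TMM, default expression filter with a minimum count of 10, robust quasi-likelihood F test, Benjamini-Hochberg threshold 0.05), after tests on simulated data. Comparisons across tables used the 21976 shared genes. Genes below the filter have values from a fit without it. An SE is |log2 fold change| over the root of F. The 9 genes and the other lists were chosen with earlier results of these data known. Of the other cell cycle genes, those past the threshold and up to 3 per role with the lowest p in HFD against Chow could be named, and the 10 genes most like the 9. A gene that this rule takes is not reported here. The 2 examples with low counts, and markers named singly, were picked after their values were seen. Likeness used log2 CPM with a prior count of 2. Alternatives were DESeq2 1.42.0, its size factors, no filter, a minimum count of 30, all 12 libraries in 1 fit, each library left out in turn, and Spearman rho.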

Additional observations from a re-analysis of the deposited data

How the results depend on the processing

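Low counts and single libraries limit these results: 4 of the 9 genes were below the expression filter in HFD and Chow and 6 in PCN and Vehicle. Leaving out single libraries moved the median log2 fold change of the 9 genes from 1.05 to between 0.59 and 1.40 in HFD versus Chow, from -0.14 to between -0.88 and 0.31 in PCN versus Vehicle, and from 0.28 to between -0.16 and 0.31 in Vehicle versus Chow. For single genes, the ranges that crossed 0 were -0.015 to 0.80 for Cdk1 and -1.83 to 1.89 for Cenpe in HFD versus Chow. In PCN versus Vehicle they were -0.56 to 0.44 for Mki67, -0.44 to 0.50 for Top2a, -0.20 to 0.53 for Cenpe, -0.88 to 0.77 for Cenpf and -0.62 to 0.62 for Kif11. In Vehicle versus HFD they were -2.11 to 1.61 for Cenpe and -0.15 to 0.36 for Plk4. In PCN versus HFD the range was -2.21 to 1.52 for Cenpe, and in Vehicle versus Chow -0.25 to 1.17 for Top2a. In PCN versus Chow the ranges were -0.15 to 0.84 for Mki67, -0.11 to 1.14 for Top2a and -0.060 to 0.71 for Ccna2. There they were also -0.43 to 0.30 for Cenpe and -0.030 to 0.33 for Plk4. These comparisons were added for single genes after seeing the data. The number of other cell cycle genes called in Vehicle versus HFD, 1, ran from 0 to 2 with single libraries left out (Cdk4 and Cdkn1a without Vehicle 55; Btg2 in place of Cdkn1a without HFD 38), was 2 with DESeq2 (Btg2 and Cdkn1a) and 0 with all 12 libraries in 1 fit, and the cause was not tested. By Spearman rho, 1 of the 10 most like genes remained. Of the values recomputed, 318 kept their direction and size or side of the threshold, 23 moved and 19 reversed, counting numbers of genes without regard to which genes they were. No paired analysis was possible because each library carries a number of its own.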
